A study of Mus musculus with 2 samples.

Results

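Gene-desert DHSs are stretches of open chromatin that lie outside protein-coding genes and far from every protein-coding start. DNase I hypersensitive sites (DHSs) are the places where the nuclease cuts chromatin readily, and 3441 of them formed the set described here. Members were chosen by measured values: a DHS of replicate 1 on an autosome counted when it overlapped a replicate 2 DHS by at least 1 bp. Its centre also had to lie outside all protein-coding gene bodies of GENCODE release M21 and more than 200 kb from every protein-coding start. They were 4.33% of the 79479 autosomal DHSs that both libraries shared, out of 130945 DHSs listed for replicate 1 and 157786 for replicate 2. The tissue was the adrenal gland of 2 B6CASTF1/J mice, both male and 25 days old, first-generation hybrids of a C57BL/6J and a CAST/EiJ parent, with 1 DNase-seq library per animal and no treatment, allele or second group. The labels name the animals biological replicates and give both the same donor code. With 1 group of 2 libraries no test between conditions exists, so values are given per library and shares with 95% Wilson intervals that cover counting error only.

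Gene deserts are long stretches without coding genes, and many of them border genes for developmental regulators whose enhancers are known to act over great distances. CTCF is a DNA-binding protein that, with cohesin, anchors chromatin loops and bounds domains, and its sites are among the most constant DHSs across tissues. AP-1 and NFI are families of transcription factors that bind enhancers in many tissues, while SF-1 (Nr5a1) directs steroidogenic genes in the adrenal cortex.

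The CTCF core was searched as a 12-letter consensus on both strands, allowing 1 mismatch, and a member with such a match is said to hold a CTCF-type match. A match is a description of the letters and not a measured binding site. The 12 strongest such members outside 1 omitted chromosome are shown because the comparison between the libraries turns on them. Each line gives the matched letters in capitals with 4 bases on either side, read 5′ to 3′ in the direction of the consensus, with mm10 (GRCm38.p6) coordinates from the RefSeq genome.
Gm31371 to Gm15319, chr8:20122195-20122214, plus strand: ggggCCACCAGAGGGCgcga
BC052040 to Meis2, chr2:115855955-115855974, plus strand: aaggCCAGCAGGGGGCgctc
Lrig3 to Atp23, chr10:126330776-126330795, minus strand: agttCCTGTAGGTGGCagtg
Rtl1 to Dio3, chr12:109958906-109958925, minus strand: acggCCACTGGGGGGCagtg
Icos to Pard3b, chr1:61181287-61181306, plus strand: ccagGCACTAGGGGGCactg
Opa1 to Hes1, chr16:29814231-29814250, minus strand: ttgtCCTCCAGAGGGCggca
Lpp to Tprg, chr16:25064746-25064765, minus strand: tcatCCAGCAGAGGGCgctc
Ubash3b to Sorl1, chr9:41461911-41461930, minus strand: cctgACAGCAGGTGGCgcag
Caln1 to Galnt17, chr5:130853574-130853593, minus strand: tctgCCACCAGAGGGCtctc
Fut8 to Gm6657, chr12:77781569-77781588, minus strand: gtgtCCAGCAGAGGGCgctg
Slc7a11 to Noct, chr3:50906151-50906170, minus strand: tcagCCACGAGGGGGCagca
Plekhb2 to Hs6st1, chr1:35385552-35385571, minus strand: tggaCCAGCAGGGGGAgcta
Among these 12, 5 matched the consensus exactly and 7 with 1 mismatch. The match at Lrig3 to Atp23 was touched by a footprint in neither library and that at Caln1 to Galnt17 in replicate 1 alone, while the other 10 were touched by a footprint in both.

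Whole members are shown next on the plus strand, first 3 with the CTCF-type match in capitals. These are the strongest member, the strongest one in the desert beside Meis2, and the member that was lowest in replicate 2 relative to replicate 1.
Gm31371 to Gm15319, chr8:20122145-20122300: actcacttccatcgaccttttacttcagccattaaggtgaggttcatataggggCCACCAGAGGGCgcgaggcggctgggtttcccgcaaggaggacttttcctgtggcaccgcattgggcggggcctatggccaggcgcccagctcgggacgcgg
BC052040 to Meis2, chr2:115855901-115856060: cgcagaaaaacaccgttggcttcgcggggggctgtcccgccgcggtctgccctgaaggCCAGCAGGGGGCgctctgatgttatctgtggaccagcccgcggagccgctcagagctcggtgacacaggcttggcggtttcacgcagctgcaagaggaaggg
Rps24 to Zmiz1, chr14:25116541-25116700: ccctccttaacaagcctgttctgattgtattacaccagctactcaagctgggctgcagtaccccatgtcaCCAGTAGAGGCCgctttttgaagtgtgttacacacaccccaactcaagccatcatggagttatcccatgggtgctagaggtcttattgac
A further 5 strong members without a CTCF-type match carry in capitals every match to the AP-1 (TGANTCA), NFI (TGGC and GCC with 5 bases between), SP/KLF (GGGCGG) and E-box (CAGCTG) motifs on either strand. They are shown because each stands for another kind of content: an AP-1 and an NFI match at the start of a long noncoding RNA, AP-1 and NFI matches in the desert beside Tbx3, a repeated AP-1 match, a GC-rich noncoding start, and none of these motifs.
Prok2 to Rybp, chr6:99991201-99991380: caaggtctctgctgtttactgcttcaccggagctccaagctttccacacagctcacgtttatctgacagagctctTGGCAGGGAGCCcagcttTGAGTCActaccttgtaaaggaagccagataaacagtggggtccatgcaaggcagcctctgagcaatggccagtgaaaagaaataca
Med13l to Tbx3, chr5:119167861-119168040: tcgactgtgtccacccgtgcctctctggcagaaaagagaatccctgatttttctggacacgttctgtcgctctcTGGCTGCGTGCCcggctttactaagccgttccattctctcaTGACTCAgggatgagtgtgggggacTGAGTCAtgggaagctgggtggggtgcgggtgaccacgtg
Lrig3 to Atp23, chr10:126511601-126511820: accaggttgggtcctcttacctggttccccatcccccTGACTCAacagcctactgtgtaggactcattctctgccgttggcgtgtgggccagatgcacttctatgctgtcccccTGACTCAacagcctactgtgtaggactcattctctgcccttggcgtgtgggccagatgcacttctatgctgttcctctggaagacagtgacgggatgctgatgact
Pcmtd1 to Sntg1, chr1:7398121-7398280: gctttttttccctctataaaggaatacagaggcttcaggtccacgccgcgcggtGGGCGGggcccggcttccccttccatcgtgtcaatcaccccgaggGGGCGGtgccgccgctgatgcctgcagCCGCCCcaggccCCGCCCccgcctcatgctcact
Ddx18 to Dpp10, chr1:122357141-122357300: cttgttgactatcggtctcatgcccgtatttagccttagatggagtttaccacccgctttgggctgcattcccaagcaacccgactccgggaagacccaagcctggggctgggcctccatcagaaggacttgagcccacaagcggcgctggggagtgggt
In the Lrig3 to Atp23 member the AP-1 letters stood at bases 38 and 115, and 74 of the 77 bases that followed the first were identical in the second copy. The Ddx18 to Dpp10 member is the only one of these 5 with no capitals.

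Height is the deposited signal of a peak. All heights were whole multiples of 0.00833 in replicate 1 and 0.00888 in replicate 2, to within 0.05 of a step. Read as CPM, those steps stand for totals of 120 M and 113 M, an inference from the values. The median member was 91 steps high in replicate 1 and 79 in replicate 2. As a check of the tissue, promoters of all 6 cortex genes examined were open in both libraries, Star at 7.55 and 4.02 and Nr5a1 at 9.01 and 4.09. Of medulla genes, Th, Dbh and Chga were open in both, while Pnmt had no DHS in either. Of 8 genes of other tissues only the endothelial genes Pecam1 and Cdh5 were open in both. In bulk tissue, fewer cells with an open site and less cutting per cell cannot be told apart.

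Deserts by this rule covered 528 Mb, or 22.0% of autosomal sequence, and held 6.51 shared DHSs per Mb. The rest of the autosomes held 40.7 per Mb. Member heights ran from 0.0833 through a median of 0.758 to 36.7 in replicate 1, and from 0.107 through 0.702 to 22.8 in replicate 2. Shared intergenic DHSs 10 to 100 kb from a coding start (n = 14583) had medians of 1.47 and 1.13, and promoter DHSs (within 1 kb of a start, n = 24050) had 4.25 and 2.99. Desert members were thus the lowest of these classes in both libraries, although members and near intergenic DHSs overlapped widely, with upper quartiles of 1.47 and 1.12 among members. Across members the log2 heights of the libraries had a Pearson r of 0.752 and heights a Spearman rho of 0.711, against an r of 0.893 across all other shared DHSs. These correlations are across regions of the same pair of libraries and carry no test. Members were a median of 160 bp wide with 51.5% GC, while near intergenic DHSs were 168 bp wide with 53.8% GC.

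Within the set, density and height fell with distance from coding starts while the CTCF-type share did not move beyond its intervals. Between 200 and 300 kb from the nearest start there were 1483 members, 11.3 per Mb, with median heights of 0.867 and 0.808. Between 500 and 1000 kb there were 583, 3.63 per Mb, with medians of 0.592 and 0.560. Beyond 1000 kb only 151 remained, 1.99 per Mb, with medians of 0.367 and 0.435. The CTCF-type share was 13.6% (11.9 to 15.4) in the nearest bin and 15.2% (10.4 to 21.8) in the farthest. At the rule's edge, 128 shared DHSs between 195 and 200 kb had medians of 0.758 and 0.733, and 101 members between 200 and 205 kb had 0.967 and 0.879.

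**Figure D1:**
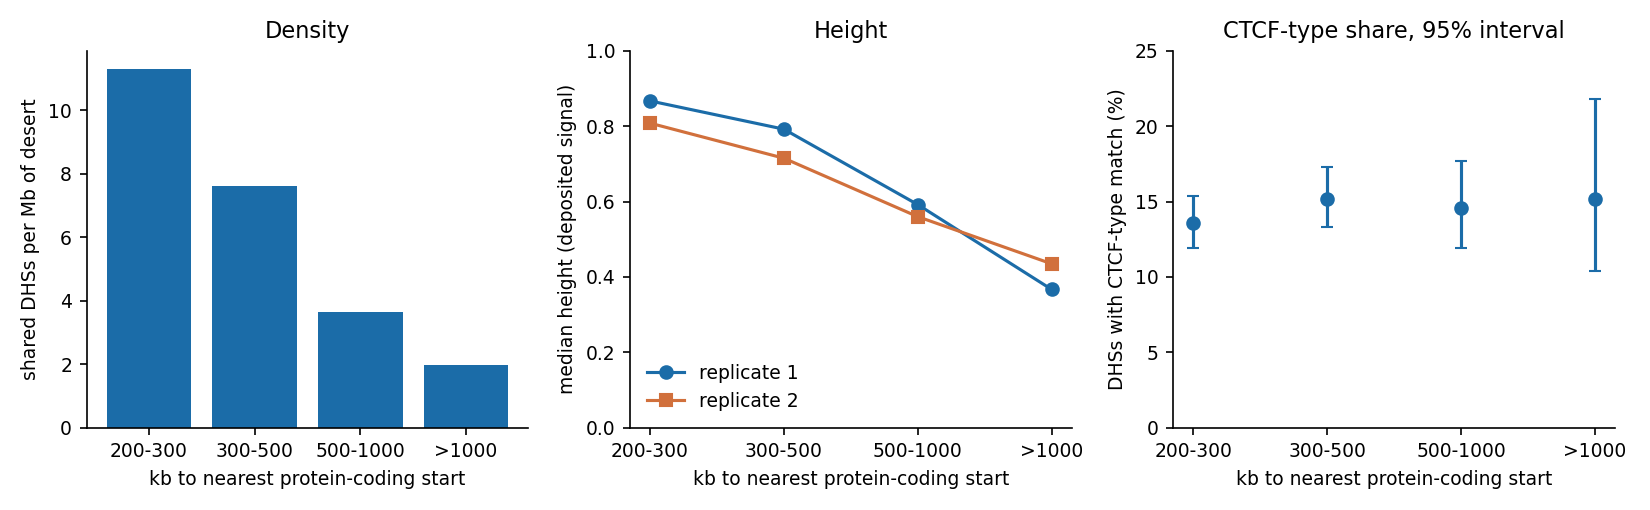
Shared gene-desert DHSs by distance to the nearest protein-coding start: density per Mb of desert (left), median height in each library (middle) and the percent with a CTCF-type match with 95% Wilson intervals (right). Density falls from 11.3 to 1.99 per Mb and height falls in both libraries, while the CTCF-type share stays between 13.6% and 15.2%.

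The 5 members farthest from any coding start lay in 3 deserts. A member in the desert between Pcdh20 and Pcdh9, which encode protocadherins, was 2537736 bp from the nearest start and had heights of 0.258 and 0.346. Its neighbour 2464406 bp away had heights of 0.317 and 0.266. Both were low and neither was touched by a footprint. In the desert between Celf4, an RNA-binding protein of neurons, and Pik3c3, a lipid kinase, a member 2206134 bp away had heights of 4.12 and 0.542, and another 2194796 bp away had 1.72 and 1.39. The Cntnap5b to Cdh20 member, 2140288 bp away, stood at 11.6 and 2.96, and the middle 36 bases of that member occurred 5 times in the reference. Great distance therefore did not go with low height in every member.

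The strongest member of all, between the predicted genes Gm31371 and Gm15319 on chromosome 8, had heights of 36.7 and 15.4, an exact CTCF-type match and the start of a processed pseudogene, Gm21769, at 161 bp. Second by the geometric mean of both heights was the member between Ddx18, a helicase, and Dpp10, a potassium-channel partner of neurons, at 23.8 and 10.6 and 789232 bp from the Ddx18 start. A pair of members between Pcmtd1 and Sntg1 followed at the start of the long noncoding RNA Gm26901, with heights of 16.5 and 13.5 in one and 17.0 and 9.97 in the other. Between Prok2, a secreted ligand, and Rybp, a Polycomb component, a member 76 bp from the start of the long noncoding RNA Gm33201 had heights of 16 and 10.8. The Lrig3 to Atp23 member with the repeated AP-1 match was at 11.6 and 14.6, the only one of the top 10 that was higher in replicate 2 in deposited heights, against 2 of the 10 with heights over the library means. Members between Kif2a and Ndufaf2 (14.0 and 9.51) and between Med13l and Tbx3 (13.9 and 8.75) held NFI matches. The member between Zeb1 and Arhgap12 was at 15.4 and 7.88, and that between BC052040 and Meis2, with an exact CTCF-type match, at 14.9 and 7.35. All 10 had a footprint in both libraries. The 345 strongest members carried 38.8% of the summed replicate 1 height of the set.

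CTCF-type matches marked 495 members, 14.4% (13.3 to 15.6), of which 166 were exact. In windows of the same length 2 kb to either side, which touched no DHS of either library, the share was 0.930% (0.726 to 1.19, n = 6665), so members held the match 15.5 times as often. Near intergenic DHSs held it in 24.1% (23.4 to 24.8), deep gene-body DHSs in 19.2% and promoter DHSs in 7.04%. Over all heights members thus had a lower share than the other distal classes, with intervals that did not overlap. Their heights were lower too, and within bins of geometric mean height the intervals of members and near intergenic DHSs overlapped in 4 of 5 bins, although the member share was the lower in all 5. Between 0.5 and 1 the share was 11.5% (9.90 to 13.3) in members and 12.3% (11.4 to 13.3) near genes, and between 2 and 4 it was 33.8% (28.5 to 39.6) and 38.0% (36.2 to 39.8). The exception was the bin from 1 to 2, with 19.5% (16.9 to 22.4) and 24.5% (23.3 to 25.7). Deep gene-body DHSs had 7.64% below 0.5, 10.3% from 0.5 to 1 and 19.6% from 1 to 2. They had 33.7% from 2 to 4 and 38.3% (35.5 to 41.3) above 4. Member shares lay on either side of these, and the intervals of members and deep gene-body DHSs overlapped in every bin. Within members the share was 7.03% below 0.5, 33.8% between 2 and 4 and 29.3% (20.5 to 39.9) above 4, where near intergenic DHSs had 39.7% (37.3 to 42.2), and 112 of the strongest 345 held a match. The match lay a median of 14.0 bp from the DHS centre. A deposited footprint touched 81.0% of the matches in replicate 1 (77.3 to 84.2) and 53.7% in replicate 2 (49.3 to 58.1). Of all members, each wider than a match, 79.9% and 65.5% were touched by a footprint at some base.

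The libraries differed at CTCF-type members. Their median height was 1.54 in replicate 1 and 0.791 in replicate 2, while the other 2946 members had medians of 0.700 and 0.693. The median log2 ratio of replicate 2 over replicate 1 was -0.96 with a match (SD 0.83 across members, n = 495) and 0.02 without (SD 0.76, n = 2946), and 76 of the 495 were higher in replicate 2 against 1507 of the 2946. The ratio moved with the number of mismatches, with medians of -1.14 for exact matches, -0.90 with 1 mismatch, -0.15 with 2, 0.01 with 3 and 0.15 with 4 or more. Members with a match had the lower ratio in each of 5 bins of height too. Below 0.5 the medians were 0.15 with a match and 0.39 without, between geometric mean heights of 1 and 2 they were -1.13 and -0.27, and between 2 and 4 they were -1.34 and -0.46, with 0 of 94 matched members higher in replicate 2. Of the 12 members printed by their match, 12 were lower in replicate 2 in deposited heights, from 7.62 and 6.56 between Opa1 and Hes1, a Notch target, to 12 and 2.74 between Slc7a11, a cystine transporter, and Noct. With heights over each library's mean across all shared autosomal DHSs, 1 of the 12 (Opa1 to Hes1, 0.28) was higher in replicate 2, as were 144 of the 495 matched and 2184 of the 2946 other members. On each of the 19 autosomes the matched members had the lower median, from -1.86 to -0.40, while the others ranged from -0.12 to 0.20. The difference was not particular to deserts, since near intergenic DHSs had medians of -1.0 with a match and -0.20 without. These are values of 1 library from each of 2 animals, and whether the animals, the tissue pieces or the libraries differ cannot be told apart.

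**Figure D2:**
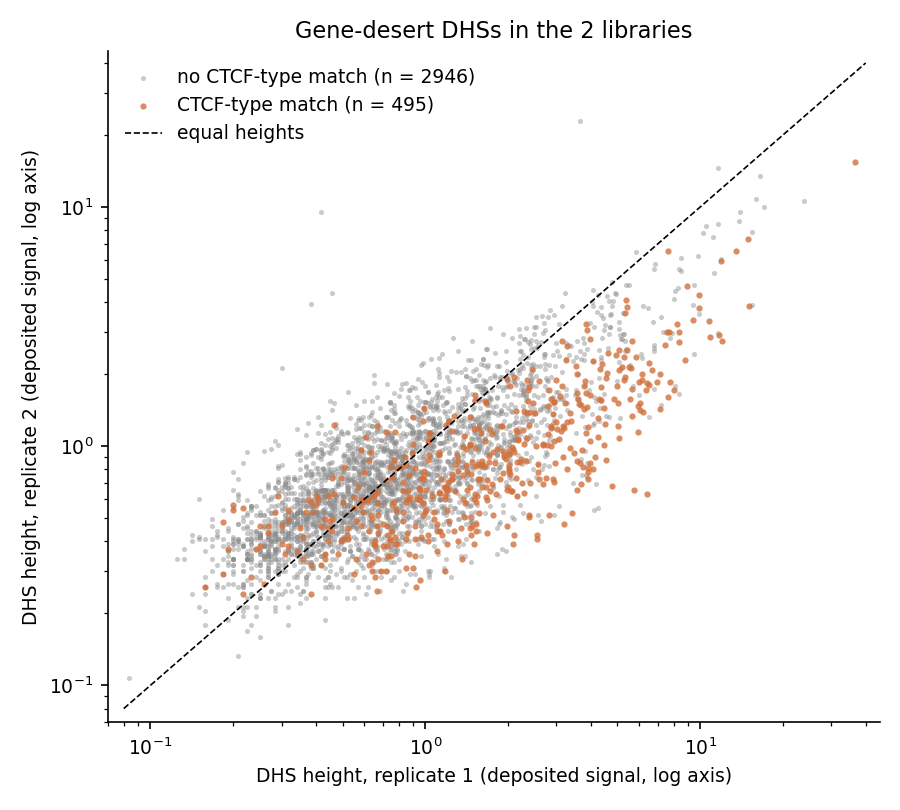
Height of each gene-desert DHS in replicate 1 (x axis) and replicate 2 (y axis), deposited signal on log axes, with CTCF-type members in orange and the others in grey. Most of the 495 CTCF-type points lie below the line of equal heights, while the 2946 others spread to both sides of it.

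**Figure D3:**
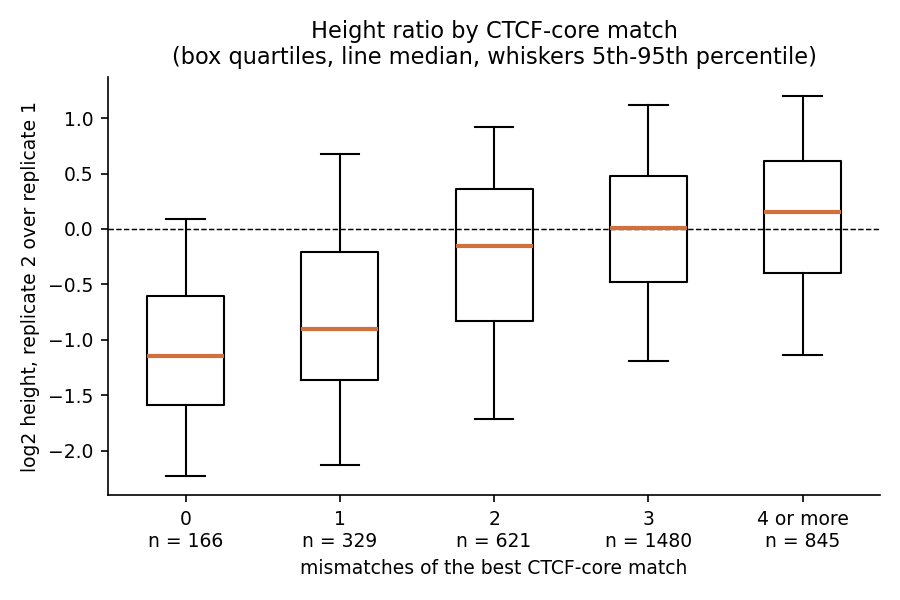
Log2 ratio of replicate 2 over replicate 1 height by the mismatches of the best CTCF-core match in each member (boxes are quartiles, lines medians, whiskers the 5th and 95th percentiles across members). The median moves from -1.14 for exact matches to 0.15 with 4 or more mismatches.

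Over all members the median log2 ratio was -0.08 (SD 0.83), and 1583 were higher in replicate 2. All other shared DHSs had a median of -0.35 (SD 0.68). When heights were divided by each library's mean over all shared autosomal DHSs, every ratio gained 0.49 and the members' median became 0.41, so the direction of the overall ratio rests on the scale while the gap between matched and unmatched members does not. Among members above the median geometric mean height, the lowest in replicate 2 relative to replicate 1 was the member between Rps24, a ribosomal protein, and Zmiz1, a transcriptional coregulator, with 6.42 in replicate 1 and 0.631 in replicate 2. Next came those between Slc7a14 and Kcnmb2 (5.74 and 0.657), Cntnap4 and Mon1b (4.25 and 0.551), Celf4 and Pik3c3 (4.12 and 0.542) and Lmo7 and Kctd12 (4.77 and 0.684), and 3 of these 5 held a CTCF-type match. In the other direction none of the 5 most extreme held one, where 14.4% of all members did. With 5 members each way, no difference is read from these counts. The member nearest to the start of the chromosome 12 sequence, flanked by Rab10 on 1 side only, was at 0.417 in replicate 1 and 9.56 in replicate 2, and that between Manea and Epha7 at 0.383 and 3.94. Of the pair between Gm11042 and Kcnh5, both in soft-masked repeats, 1 was at 3.64 and 22.8 and has 23 reference copies of its middle 36 bases, and the other was at 0.458 and 4.36. The member between Gm5426 and Btg1 was at 0.300 and 2.12.

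AP-1 and E-box matches marked more members than the CTCF core with up to 1 mismatch (495), and fewer than the core with up to 2 (1116). AP-1 matches occurred in 641 members (18.6%, 17.4 to 20), 3.74 times the 4.97% of windows beside them, and E-box matches in 613 (17.8%), 2.88 times the 6.17% beside. NFI matches occurred in 503 (14.6%, 13.5 to 15.8), 15 times the 0.975% beside. The SF-1 motif (TCAAGGTCA) was rare, in 41 members (1.19%, 0.880 to 1.61) against 0.255% (0.159 to 0.408) beside, and the shorter nuclear receptor motif (AAGGTCA), which each SF-1 match contains, in 8.51% against 3.02%. Matches to the motif of GATA factors, AGATAA, were fewer in members, 7.27% (6.44 to 8.18), than beside them, 11.4% (10.6 to 12.2). Those to the motif of OCT factors, ATGCAAAT, were fewer likewise, 0.639% against 1.55%. The windows beside had a median GC content of 41.7% against 51.5% in members, and the part of base composition in these shares was not tested. Near intergenic DHSs had 16.9% AP-1, 13.5% NFI and 18.2% E-box, each within 2 points of the members. The other motifs searched were TEAD (GGAATG), CRE (TGACGTCA), ETS (CCGGAAG), a part of the REST site (TTCAGCACC), FOX (TGTTTAC), SOX (ACAATG), RUNX (TGTGGTT), EBF and the glucocorticoid response element. Their shares in members ran from 0.751 times that of the windows beside, for FOX, to 4.27 times, for CRE, which only 11 members held. SOX matches were fewer in members, 8.31% (7.44 to 9.28), than beside them, 10.3% (9.63 to 11.1). FOX and RUNX were lower in members too, with overlapping intervals. SP/KLF matches, common in promoters (58.1%), were in 6.07% of members and 12.1% of near intergenic DHSs.

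**Figure D4:**
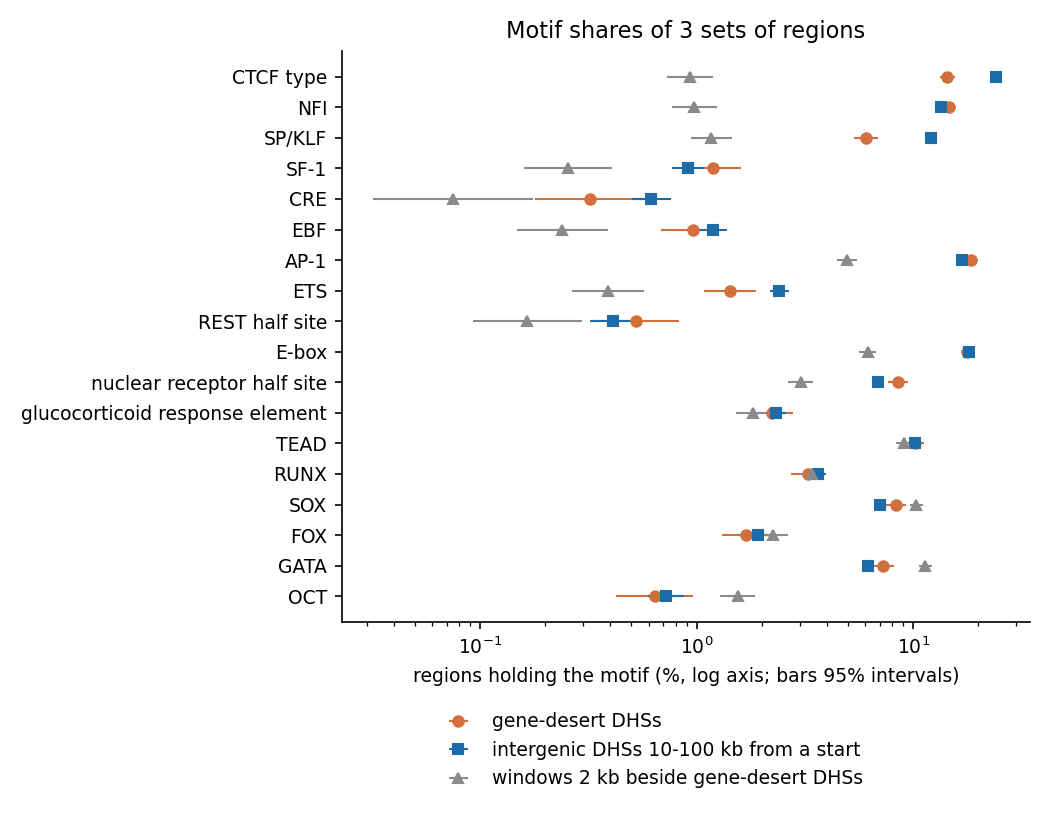
Percent of regions holding each motif on a log axis, for gene-desert DHSs, intergenic DHSs 10 to 100 kb from a coding start, and windows 2 kb beside the gene-desert DHSs, with 95% Wilson intervals. CTCF-type and NFI matches stand farthest from the windows beside (15.5 and 15 times). GATA, OCT and SOX lie below the windows, as do FOX and RUNX with overlapping intervals.

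Members with an AP-1 match had median heights of 0.800 and 0.817 and those with an NFI match 1.04 and 0.799. The 67 members with both had medians of 1.49 and 1.10. Among members without a CTCF-type match, the median log2 ratio was 0.01 with AP-1 (n = 623), -0.39 with NFI (n = 481) and 0.20 with SF-1 (n = 37). The glucocorticoid response element had the same median as SF-1, 0.20 (n = 72). The medians were also negative with a part of the REST site (-0.50, n = 16), OCT (-0.47, n = 17) and SP/KLF (-0.30, n = 175). They were less negative with CRE (-0.25, n = 11), EBF (-0.18), FOX (-0.08), E-box (-0.05) and TEAD (-0.01). Over the library means NFI had 0.11, OCT 0.03, SP/KLF 0.19, CRE 0.25, EBF 0.31, FOX 0.41, E-box 0.45 and TEAD 0.48. The sign for each of these thus rests on the scale. REST came to -0.01, with 8 of its 16 members higher in replicate 2, so no direction is read from it. CTCF-type members stayed negative at -0.46. The 1562 members with none of the CTCF, AP-1, NFI and E-box motifs were lower, at 0.612 and 0.640.

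Members were spread over most deserts, unevenly. Counting a desert as the qualifying bases between the bodies of 2 neighbouring coding genes, or a gene and a chromosome end, there were 908 deserts, of which 684 held a member. The 224 without a member came to 45.6 Mb. The 93 deserts with 10 or more members held 1369 members, 39.8% of the set, in 108 Mb, and the other 60.2% lay in deserts with fewer. The median spacing of neighbours within a desert was 35.6 kb, yet 935 members (27.2%) lay within 5 kb of another, and members of such groups are not independent of each other.

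The desert between Myc, a growth-promoting transcription factor, and Gsdmc, a gasdermin, held the most, 45 members in 1.42 Mb. Their heights ran from 0.300 through a median of 0.858 to 11.9 in replicate 1, and from 0.240 through 0.977 to 6.07 in replicate 2, and 28 of the 45 were higher in replicate 2, or 37 with heights over the library means. Over all 3441 members these counts were 1583 and 2328. Of the 45 members, 18 lay in the body of Pvt1, a long noncoding RNA next to Myc, and the highest was 918 kb from the Myc start with an E-box match and NFI matches. The desert between Med13l, a Mediator kinase-module subunit, and Tbx3, a T-box factor, was the densest of the 3 fullest, with 42 members in 0.705 Mb. Heights there were 0.542 to 13.9 (median 1.32) in replicate 1 and 0.506 to 8.75 (median 1.07) in replicate 2, and its 4 CTCF-type members all lay toward the Med13l end. Id2, an inhibitor of basic helix-loop-helix factors, and Rnf144a, a ubiquitin ligase, bounded 26 members with medians of 0.762 and 0.808. Sox9, a factor of cartilage and gonad development, and Slc39a11, a zinc transporter, bounded 24 members in 0.263 Mb, 91.4 per Mb, with medians of 1.33 and 1.13, and 17 of them lay in the body of the long noncoding RNA 2610035D17Rik. Next, 3 deserts tied at 22 members: Cd83 to Jarid2 with 0 CTCF-type members, Celf4 to Pik3c3 with 4 and Ubash3b to Sorl1 with 3. Unlike in the Myc desert, fewer members were higher in replicate 2 than lower beside Tbx3 (9 of 42), Id2 (12 of 26) and Sox9 (4 of 24). Over the library means the counts were 24, 19 and 17. A flanking gene is named for position alone, and no link between a member and a gene was measured.

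**Figure D5:**
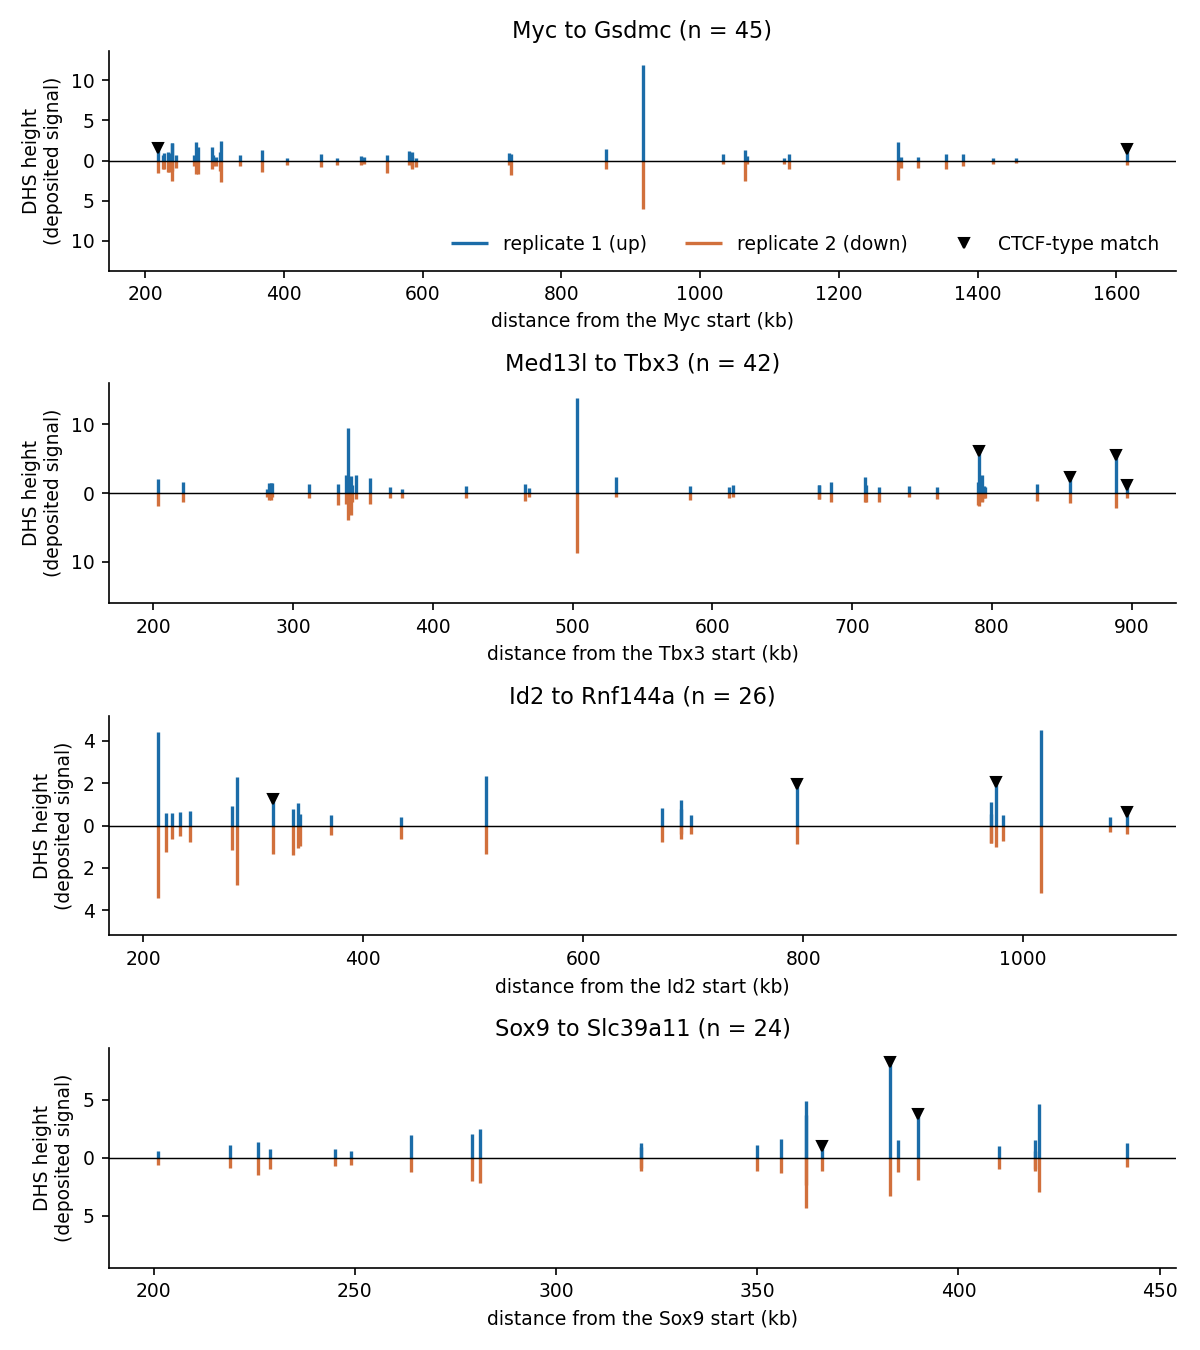
Members of the 4 fullest deserts by distance in kb from the start of the named gene, with replicate 1 height upward in blue, replicate 2 height downward in orange and triangles on CTCF-type members. Each desert holds a few high members among many low ones, and the 4 triangles beside Tbx3 lie at the far end from it.

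Runs of 3 or more members with gaps of at most 5 kb numbered 89 and took in 315 members. The fullest run was beside Meis2, a homeobox factor, with 7 members within 8.30 kb, summed heights of 27.8 and 17.0, and 1 CTCF-type match, the one printed in full. The desert between Med13l and Tbx3 held a run of 6 members in 5.52 kb, with summed heights of 13.2 and 7.59, and a run of 5 in 6.98 kb, with 18.5 and 10.8. On the other side of Myc, toward A1bg, 5 members in 4.14 kb summed to 13.6 and 7.41. Gata6, a zinc-finger factor of the adrenal cortex, was flanked by a run of 5 in 6.12 kb with sums of 7.52 and 7.59.

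Deserts beside regulators of development were fuller per Mb than those beside adhesion genes. Of 86 developmental transcription factors listed, 61 flanked a desert and 58 of these a member (95.1%), with a median of 8 members per flanking gene and 10.9 per Mb. Of all coding genes 1561 (7.51%) flanked a desert and 1220 of these a member (78.2%), with a median of 3 and 6.51 per Mb, each member counting for both its flanks. Desert length beside these 1561 genes had a median of 0.361 Mb. The 5 fullest of the list were Myc (58 members in its 2 deserts), Tbx3 (42), Sox9 (33), Id2 (26) and Zeb2 (20), a repressor of epithelial genes. Around Zeb2 the desert was 3.30 Mb long and heights stayed between 0.250 and 1.92 in replicate 1 and 0.258 and 1.07 in replicate 2. Of 63 adhesion and synapse genes, 57 flanked a desert and 50 of these a member (87.7%), with a median of 4 and 2.52 per Mb. Their deserts were longer, with a median of 2.19 Mb against 0.699 Mb beside the transcription factors, and density fell with distance over the whole set. The part of desert length in the member shares, the counts per gene and the counts per Mb was not tested. Cdh11, a cadherin of mesenchyme, led that list with 22 members, followed by Flrt2 (19), Pcdh9 (16), Cdh8 (15), Pcdh17 (15) and Tenm4 (15). Median heights around Pcdh9 were 0.354 and 0.480 and around Cdh8 0.367 and 0.444. The longest deserts without any member included Cdh9 to Cdh10 (1.64 Mb), Slitrk1 to Slitrk6 (1.44 Mb) and Cdh10 to Cdh12 (1.43 Mb), all between adhesion or synapse genes.

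Among 55 genes of the adrenal cortex and chromaffin cells, 19 flanked a desert and 17 of these a member (89.5%), with a median of 7 members and 9.01 per Mb. Desert length beside them had a median of 0.515 Mb. Cited2, a coactivator in adrenal development, had 19 members. The highest of them, with an exact CTCF-type match, was at 6.52 and 1.81. It lay 2423 kb from the Cited2 start, toward Nmbr at the other end of the desert, and 40 bp from the start of the noncoding gene Gm47710. Sox11, a factor of neural and chromaffin development, had 17 members with medians of 0.925 and 0.586, Nr2f2, an orphan nuclear receptor, 13, and Isl1, a LIM factor of sympathetic neurons, 12. Inhba, an activin subunit, had 11. The highest near Inhba, 253 kb from its start, was at 4.97 and 1.87. Gata6 had 9 members in 0.180 Mb, medians 0.633 and 0.755, and Mc2r, the receptor for adrenocorticotropin, 9 in 0.514 Mb, medians 0.592 and 0.560. Shh, the ligand made by the outer cortex, had 7 with medians of 0.867 and 0.871. Of 50 secreted ligands, 18 flanked a desert and 13 of these a member (72.2%), with a median of 3 and 11.7 per Mb. Desert length beside the ligands had a median of 0.280 Mb. Fgf9 led with 15 members, medians 1.24 and 0.915, before Inhba, the chemokine Cxcl12 (10 members, medians 0.667 and 0.902), Shh and the Wnt inhibitor Dkk2 (6). Several genes stand on more than 1 of these lists.

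A start of a noncoding transcript lay within 1 kb of 222 members, 6.45% (5.68 to 7.32), against 8.59% (8.14 to 9.05) of near intergenic DHSs. For lincRNA starts alone the count was 137, 3.98% (3.38 to 4.69), against 4.35% near genes, with overlapping intervals. By the type of the nearest noncoding gene, 133 were lincRNAs, 37 processed pseudogenes, 20 processed transcripts and 6 miRNAs. Beside Gm21769, the pair at Gm26901 and the member at Gm33201, the last of the 5 strongest was at 10.5 and 8.31, 308 bp from the start of A230028O05Rik between Lpp and Tprg. Members at lincRNA starts had median heights of 0.967 and 0.853 and the rest 0.758 and 0.702. Of 131 members with a CpG ratio (observed over expected) above 0.6 and GC above 50%, 38 had a noncoding start within 1 kb. Bodies of long noncoding RNA genes held 18.6% of members (17.3 to 19.9) and 9.23% of desert bases, and 338 such genes held at least 1.

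Repeats took little of the set. The centre of 9.85% of members (8.90 to 10.9) was soft-masked, against 28.6% (27.5 to 29.6) of windows beside and 7.50% of near intergenic DHSs. The middle 36 bases of 67 members occurred more than once in the reference. By rule, stretches of antigen receptor segments counted as desert, since the annotation does not type those segments as protein-coding. The immunoglobulin heavy chain locus held 15 members, 12 of them CTCF-type, with medians of 0.608 and 0.515, and the T cell receptor alpha locus held 11, 5 of them CTCF-type, with medians of 1.47 and 0.515. The immunoglobulin kappa locus held 21 and 85 desert DHSs in the respective libraries and none that they shared.

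Confidence in single members varied with their height. A deposited footprint touched 56.8% of members (55.2 to 58.5) in both libraries, against 72.0% of near intergenic DHSs. Both shorter peak lists held 42.7% of members, and 46.1% reached an FDR of 0.001 or less in both libraries. Below a geometric mean height of 0.5, 16.6% of members had a footprint in both libraries, and between 2 and 4 it was 93.9%.

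Most desert DHSs were not shared. Replicate 1 listed 8358, of which 41.2% overlapped replicate 2, and replicate 2 listed 18739, of which 18.3% overlapped replicate 1, against 64% and 57.6% outside deserts. Those found in 1 library alone were low, with medians of 0.308 (n = 4917) and 0.355 (n = 15303). Their contents differed between the libraries. CTCF-type matches were in 8.28% (7.54 to 9.08) of replicate 1's own desert DHSs and in 1.18% (1.02 to 1.36) of replicate 2's, the latter within the interval of windows beside members. NFI matches were in 9.56% and 1.61%, AP-1 matches in 7.95% and 4.81%, and soft-masked centres made up 24.5% and 33.9%. Each of these shares in replicate 1's own DHSs lay between that of replicate 2's own and that of shared members. Median width was 126 bp in replicate 1's own, 118 bp in replicate 2's own and 160 bp in shared members, whose lengths the windows beside had. Median GC was 53.1%, 48.1% and 51.5% in the same order. The part of width and base composition in these shares was not tested.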

How the data were processed

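DNase-seq measures how often the nuclease cuts each place in chromatin, here in 2 libraries of adrenal gland. The deposited files, in mm10 per the labels, give per library 2 peak lists, an FDR list and footprints. The aligner is not given in the sources used here, nor are callers and filters. Peak height is the signal (column 7) as deposited by the authors, whose scaling is inferred from its steps. FDR values (q-values) up to 0.05 were deposited along the genome, and every deposited footprint carries the FDR threshold 0.01. No test exists for 1 group.

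The longer lists were used. A replicate 1 DHS took the height of the strongest replicate 2 DHS it overlapped by 1 bp or more. Genes and starts (20807 genes, 52063 starts) came from GENCODE M21. Sequence came from the soft-masked RefSeq genome GRCm38.p6, and motifs other than CTCF (17) were matched exactly on both strands. Intervals are 95% Wilson intervals. Regions named are the 10 strongest by geometric mean, the 5 fullest deserts, the 5 farthest, the 5 strongest with a noncoding start, the 10 strongest with a CTCF-type match, the 5 most extreme ratios each way, and the 5 genes per list with most members; others were named after their values were seen. The members and lists were chosen with earlier results of these data known. The searches, the placing of DHSs and the pairing of heights were tested on simulated data. All 600 sequences with a planted CTCF core gave a match with no more mismatches than planted. The 200 exact ones were all found at their place and strand, while place was not checked for the others. All 2000 positions and 500 pairs were right. Alternatives changed the overlap, lists, distance, libraries and motif settings. Python was used with numpy 2.4.6 and pandas 2.3.3. Some items that the naming rule covers are not reported here.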

Additional observations from a re-analysis of the deposited data

How the results depend on the processing

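Of 60 values recomputed for 8 results under 15 alternatives, 19 stayed within the spread taken for each result, 39 moved and 2 turned. The median log2 ratio turned, to 0.03 beyond 500 kb and to 0.41 with heights over the library mean. Requiring 50% overlap of each DHS gave median heights of 0.867 and 0.764, 16% CTCF-type, 63.5% with footprints and 8.33% soft-masked. The shorter lists gave 1470 members, medians of 1.49 and 1.18, a ratio of -0.27, 18.8% CTCF-type, 84.6% with footprints and 6.26% soft-masked. Beyond 100 kb there were 6807 members with medians of 0.900 and 0.799, 60.9% with footprints and 8.37% soft-masked, and beyond 500 kb 734 with 0.550 and 0.524, 46.2% and 15.5%. With a single library, shared or not, the number of desert DHSs was 8358 (replicate 1 alone) or 18739 (replicate 2 alone), median height 0.417 or 0.382, CTCF-type share 10.8% or 3.44%, footprint share 57.5% or 46.6%, noncoding starts 5.30% or 3.33% and soft-masked centres 18.5% or 29.4%, so the number, CTCF-type and repeat shares rest on which library is read. The CTCF-type share was 4.82% with no mismatch and 32.4% with 2. Noncoding starts within 5 kb gave 15% and lincRNA starts alone 3.98%. Members over 50% soft-masked were 6.42%, and among members whose middle bases occur once, an alternative chosen after seeing the data, soft-masked centres were 8.77%. The causes of these shifts were not tested. The gap in median log2 ratio between members with and without a CTCF-type match was -0.98, and from -0.91 to -1.13 with up to 1 mismatch under the other overlap, list, distance and copy settings. No paired analysis was possible because the series holds 1 group, so no groups share replicate numbers. The lowest members were 10 and 12 steps high, and sites below the lists' FDR limit were not detectable at this depth.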

Other observations

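Neighbouring CTCF-type members of the same desert, 188 pairs in all, had their matches on the same strand in 100 pairs (53.2%), facing each other in 38 (20.2%) and facing away in 50 (26.6%). Over all CTCF-type members, 230 matches lay on the plus strand and 265 on the minus strand, and 307 deserts held at least 1. The pair orientations were not set against those of randomly assigned strands, so no preference is read from them.

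One of the strong CTCF-type members, at 11.9 and 5.92, lay between Rtl1 and Dio3 in the imprinted Dlk1 to Dio3 cluster, 320167 bp from the Dio3 start. The animals are hybrids of 2 strains, and the deposited peak heights do not separate the parental alleles.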
